A study of Mus musculus with 6 samples.

Results

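A set of 6 genes that move ammonia across kidney epithelia or make and consume it were examined in kidney RNA, out of the 15302 genes listed for each library. They were taken by name, and the choice was made with earlier results of these data known. They were the ammonia transporters Rhcg and Rhbg, the glutamine transporter Slc38a3, and the enzymes glutamate dehydrogenase (Glud1), phosphoenolpyruvate carboxykinase (Pck1) and glutamine synthetase (Glul). All 6 genes were listed, and all 6 passed the filter for testing, a mean FPKM of 0.5 or more, which left 13230 genes. FPKM is a read count scaled by transcript length and by library size. The kidneys came from 3 WT mice, labelled C57BL/6, and 3 Tsc1-KO mice, labelled Tsc1f/f with Aqp2 Cre, all aged 45 days, with 1 library each. In Tsc1-KO mice the floxed Tsc1 alleles are cut by a Cre under the Aqp2 promoter, which is active in principal cells, the water- and sodium-absorbing cells of the collecting duct. No library of floxed mice without Cre, or of Cre mice without the floxed alleles, was analysed here, so effects of Tsc1 loss, of Cre and of strain background cannot be told apart. Rhcg and Rhbg were also named by the study, from these same libraries, among genes of the A-type intercalated cell (A-IC), so their count is not independent evidence.

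The kidney makes ammonia mainly in the proximal tubule. There Slc38a3, in the basolateral membrane, takes up glutamine from the blood side, ammonia is released from glutamine and then, by Glud1, from glutamate, and Pck1 leads the remaining carbon skeleton toward glucose. Glul runs the other way and joins ammonia to glutamate to form glutamine; in the mouse it is found in proximal tubule cells and in intercalated cells. Rhcg and Rhbg, members of the Rhesus glycoprotein family, carry ammonia from the interstitium into the lumen of the collecting duct, Rhbg at the basolateral membrane and Rhcg at both membranes. A-ICs secrete the protons that trap it there as ammonium. In rodents given an acid load, expression of Slc38a3 and Pck1 is known to rise, Rhcg protein to increase and Glul in the proximal tubule to fall.

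The sequences just upstream of the start sites of Rhcg, Pck1 and Glul are shown because these are the matched members whose libraries did not overlap between the groups in the values given further on. RefSeq promoter sequences on build GRCm38.p6 were matched for 4 of the 6 genes, Rhcg, Pck1, Glul and Glud1; Rhbg and Slc38a3 were not matched. Each sequence runs 5′ to 3′ along the gene's strand and holds the 250 bases before the start site. Rhcg lies at chr7:79617658-79617907 on the minus strand, Pck1 at chr2:173152823-173153072 on the plus strand and Glul at chr1:153899679-153899928 on the plus strand. Capitals mark a glucocorticoid receptor half-site (TGTTCT) in Rhcg, a half-site of the cAMP response element (ACGTCA, which is TGACGT on the other strand) in Pck1 and CCAAT boxes in Glul.
Rhcg: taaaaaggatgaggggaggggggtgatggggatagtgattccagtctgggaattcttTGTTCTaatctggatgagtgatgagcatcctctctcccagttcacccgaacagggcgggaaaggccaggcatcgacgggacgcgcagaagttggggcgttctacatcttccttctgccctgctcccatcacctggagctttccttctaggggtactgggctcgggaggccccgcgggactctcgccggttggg
Pck1: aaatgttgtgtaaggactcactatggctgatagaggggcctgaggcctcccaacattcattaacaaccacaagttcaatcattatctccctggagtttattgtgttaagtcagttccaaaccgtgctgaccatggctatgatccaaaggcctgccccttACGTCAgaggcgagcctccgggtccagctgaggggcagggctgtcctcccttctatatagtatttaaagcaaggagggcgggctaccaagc
Glul: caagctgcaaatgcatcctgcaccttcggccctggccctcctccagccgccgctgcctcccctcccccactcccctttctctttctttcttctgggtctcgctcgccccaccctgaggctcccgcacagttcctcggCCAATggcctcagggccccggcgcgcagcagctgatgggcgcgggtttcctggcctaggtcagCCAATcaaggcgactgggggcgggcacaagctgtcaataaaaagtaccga
Both strands were searched for 5 motifs, the 3 in capitals, the TATA box TATAAA and the forkhead core TGTTTA, and no matches overlapped each other. TGTTCT stood at -193 to -188 from the Rhcg start site and is in 16.1% of 32851 promoters of the same length. TGACGT is in 6.47% of them and stood at -91 to -86 in Pck1. CCAAT is in 33.8% and stood at -113 to -109 and at -50 to -46 in Glul. TATAAA, in 12.4% of promoters, and TGTTTA, in 12%, were in none of the 4 windows. The window of Glud1 had a GC content of 82.0%, against 64.8% for Glul, 58.4% for Rhcg, 50.8% for Pck1 and a median of 52.4% over all promoters. A match describes letters only and is no sign that a factor binds there.

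Between 19568856 and 24647430 reads per library fell in listed genes, and each of the 6 genes had at least 834 reads in every library. Across genes, WT replicates 1 and 2 correlated at 0.9919, while WT replicate 3 correlated at 0.977 and 0.976 with them and at 0.9741 to 0.9811 with the Tsc1-KO libraries, so it stood apart from its group, and counts without it are given beside the main ones. Tsc1 itself measured 8.46, 8.91 and 7.49 FPKM in the WT libraries and 7.69, 7.62 and 8.23 FPKM in the Tsc1-KO libraries. The groups overlapped (log2 fold change -0.07 ± 0.088 SE, limma adjusted p = 0.699), so in whole kidney its level is no check of the labels. The labels do not say how the mice of a group were related, and p-values measure the spread between these libraries.

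Of the 6 genes, the 2 transporters rose in Tsc1-KO kidneys and none fell at an adjusted p under 0.05 over all genes. Over all tested genes, 1.87% rose and 0.234% fell under the same rule, 2.11% in all. For 4 of the 6 genes, Rhcg, Rhbg, Pck1 and Glul, every Tsc1-KO library lay above every WT library, an arrangement that 17.3% of all tested genes showed. For 0 of the 6 did every Tsc1-KO library lie below every WT library, as 8.07% of all genes did, and 4 of the 6 had an unadjusted p under 0.05, against 19.2% of all genes. The median log2 fold change over all genes was 0.04. The tests were limma on log2(FPKM + 0.1), 2-sided and with Benjamini-Hochberg adjustment, so fold changes are on that scale. With 3 libraries against 3, exact permutation of the labels gives no p below 0.1. In bulk kidney RNA, more cells of a type and more RNA per cell cannot be told apart.

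**Figure D1:**
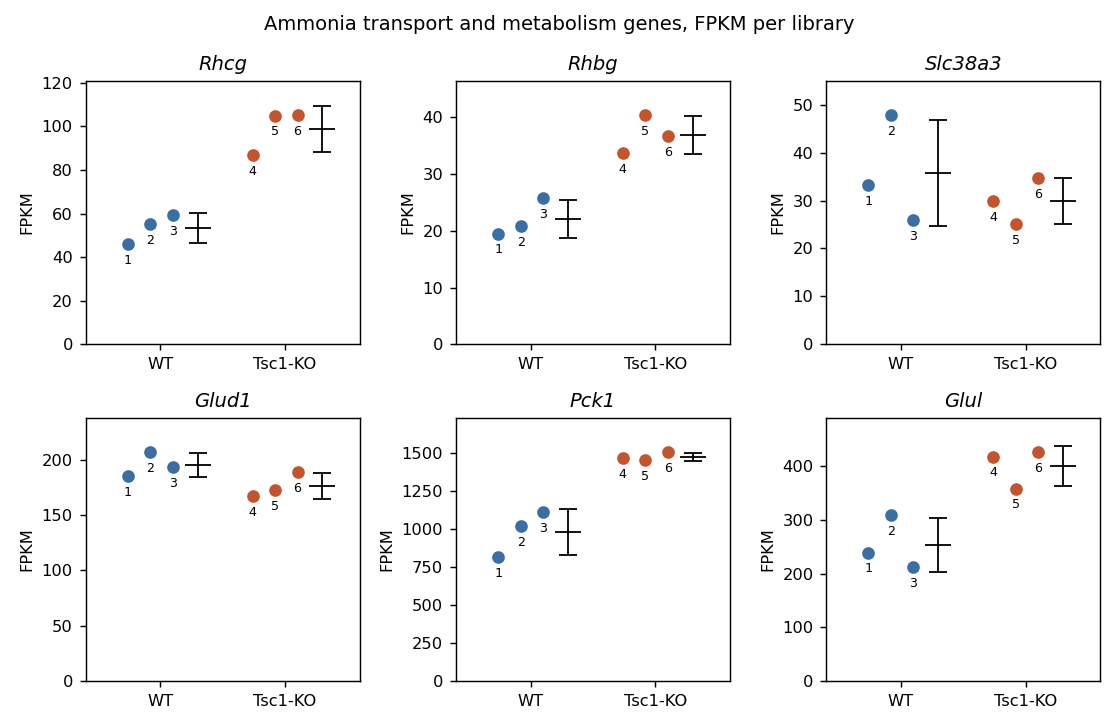
FPKM of each of the 6 genes (vertical axis, starting at 0) in the 3 WT libraries (blue, replicates 1 to 3) and the 3 Tsc1-KO libraries (orange, replicates 4 to 6); the bar and whiskers beside the points are the mean and SD. Groups are separate for Rhcg, Rhbg, Pck1 and Glul and overlap for Slc38a3 and Glud1.

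Rhcg, the ammonia channel of both collecting duct cell membranes, measured 46.0, 55.0 and 59.4 FPKM in the WT libraries and 86.8, 105.0 and 105.1 FPKM in the Tsc1-KO libraries. The lowest Tsc1-KO library lay well above the highest WT library, and the spread within each group was smaller than the gap between their means. The mean went from 53.5 ± 6.84 FPKM to 99.0 ± 10.5 FPKM (SD, n = 3 each), a fold of 1.85 with a 95% interval of 1.53 to 2.24 (log2 fold change 0.89 ± 0.117 SE, limma adjusted p = 0.0206, exact permutation p = 0.1). Rhcg passed the test in 10 of 13 alternative settings. It missed with WT replicate 1 left out (limma adjusted p = 0.0698), with Tsc1-KO replicate 5 left out (0.0874) and with Tsc1-KO replicate 6 left out (0.102), at log2 fold changes no lower than 0.78.

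Rhbg, the basolateral member of the pair, measured 19.5, 20.8 and 25.8 FPKM in the WT libraries and 33.6, 40.4 and 36.8 FPKM in the Tsc1-KO libraries. The groups did not overlap here either, and WT replicate 3 was the highest WT library for both transporters. The mean went from 22.0 ± 3.32 FPKM to 36.9 ± 3.37 FPKM (SD, n = 3 each), a fold of 1.68 with a 95% interval of 1.38 to 2.04 (log2 fold change 0.75 ± 0.119 SE, limma adjusted p = 0.0321, exact permutation p = 0.1). Rhbg passed in 7 of 13 alternatives. Among the fits with 1 library left out it passed only without WT replicate 3 (log2 fold change 0.87); the other fits gave limma adjusted p between 0.0709 and 0.146.

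The 2 transporters moved in step. Rhcg was 2.36, 2.65 and 2.30 times Rhbg in FPKM in the WT libraries and 2.58, 2.60 and 2.86 times in the Tsc1-KO libraries. These ratios overlapped between the groups, and no test was run on them. Over the 6 libraries the log2 values of Rhcg and Rhbg correlated at 0.982, which describes 6 points that share the genotype difference.

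Slc38a3, which brings glutamine into proximal tubule cells, measured 33.2, 47.8 and 26.0 FPKM in the WT libraries and 29.97, 25.1 and 34.7 FPKM in the Tsc1-KO libraries. The groups overlapped throughout, and WT replicate 2 alone stood above all other libraries. Means were 35.7 ± 11.1 FPKM and 29.9 ± 4.83 FPKM (SD, n = 3 each), a fold of 0.858 with a 95% interval of 0.594 to 1.24 (log2 fold change -0.22 ± 0.224 SE, limma adjusted p = 0.649, exact permutation p = 0.6). It had the widest relative spread of the 6 genes in both groups, with a coefficient of variation of 31.1% in WT and 16.1% in Tsc1-KO mice. Without WT replicate 2 the log2 fold change was 0.01, so the sign rested on that library.

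Glud1, the mitochondrial enzyme that releases ammonia from glutamate, had the lowest coefficient of variation of the 6 genes in WT libraries. It measured 184.8, 206.8 and 193.6 FPKM in the WT libraries and 166.8, 172.7 and 188.8 FPKM in the Tsc1-KO libraries. Only Tsc1-KO replicate 6 reached into the WT range. Means were 195 ± 11.1 FPKM and 176 ± 11.4 FPKM (SD, n = 3 each), a fold of 0.903 with a 95% interval of 0.804 to 1.01 (log2 fold change -0.15 ± 0.0708 SE, limma adjusted p = 0.318, exact permutation p = 0.2). A rise of Glud1 beyond 1.01-fold lay outside that interval.

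Pck1, the enzyme that opens the path from oxaloacetate to glucose, was the most abundant of the 6, at rank 23 of the tested genes by mean FPKM. It measured 814.5, 1015.7 and 1113.3 FPKM in the WT libraries and 1462.9, 1454.4 and 1505.2 FPKM in the Tsc1-KO libraries. The Tsc1-KO libraries lay close together, with a coefficient of variation of 1.84%, against 15.5% in WT mice, and all 3 were above every WT library. Means were 981 ± 152 FPKM and 1474 ± 27.2 FPKM (SD, n = 3 each), a fold of 1.51 with a 95% interval of 1.25 to 1.84. Pck1 nevertheless missed the threshold over all genes (log2 fold change 0.60 ± 0.119 SE, limma adjusted p = 0.0596, exact permutation p = 0.1). It passed without WT replicate 3 (log2 fold change 0.70, limma adjusted p = 0.0189) and with array quality weights (0.72, limma adjusted p = 0.0098). Of all reads in listed genes, Pck1 took 0.213%, 0.266% and 0.291% in WT and 0.383%, 0.381% and 0.394% in Tsc1-KO libraries.

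Glul, the enzyme that consumes ammonia, measured 239.4, 309.1 and 211.7 FPKM in the WT libraries and 418.3, 358.6 and 426.7 FPKM in the Tsc1-KO libraries. The groups were separate, with WT replicate 2 and Tsc1-KO replicate 5 nearest to each other. Means were 253 ± 50.2 FPKM and 401 ± 37.1 FPKM (SD, n = 3 each), a fold of 1.6 with a 95% interval of 1.26 to 2.03 (log2 fold change 0.68 ± 0.145 SE, limma adjusted p = 0.0729, exact permutation p = 0.1). Like Pck1 it missed the threshold. It passed without WT replicate 2 (log2 fold change 0.83, limma adjusted p = 0.0312), without WT replicate 3 (0.56, limma adjusted p = 0.0499) and with array quality weights (0.64, limma adjusted p = 0.0219). RefSeq places the microRNA gene Mir8114 within Glul, so reads from either cannot be told apart.

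With WT replicate 3 left out, 4 of the 6 genes passed, Rhcg, Rhbg, Pck1 and Glul. In that fit 5.38% of all tested genes rose and 402 of 13257 fell. The same 4 passed with array quality weights, where 8.53% of all genes rose. Limma called 0 of the 6 in each of 3 fits, those lacking WT replicate 1, or replicate 5 or 6 of the Tsc1-KO mice. Over all genes, limma called 23 of 13244 as higher without WT replicate 1. It called 24 of 13224 without Tsc1-KO replicate 5 and 0 of 13187 without replicate 6. In each of these fits 4 of the 6 were higher at an unadjusted p under 0.05, as were 1186, 1345 and 1215 of all genes. Without Tsc1-KO replicate 6, 1 of the 6 was also lower at that p, as were 552 of all genes. Rhcg and Rhbg alone passed with limma-voom on the whole reads recovered from the FPKM, at adjusted p of 0.0201 and 0.0304, against 0.0522 for Pck1 and 0.0688 for Glul, and 1.9% of all genes rose in that fit. Rescaling the libraries by median-of-ratios factors left the sign of every one of the 6 genes as it was.

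**Figure D2:**
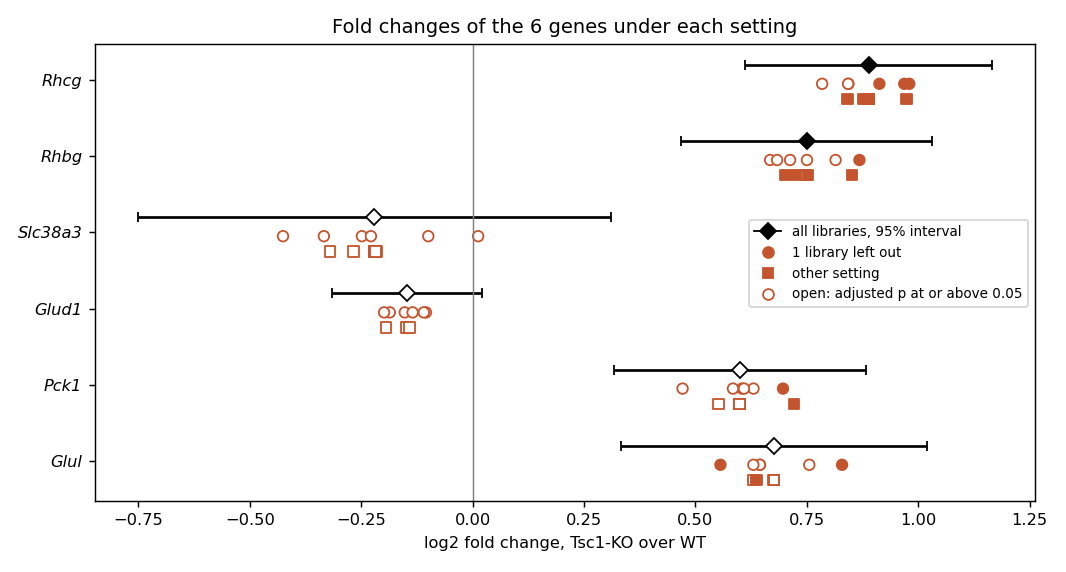
log2 fold change of Tsc1-KO over WT (horizontal axis) for each of the 6 genes: black diamonds are the values over all 6 libraries with their 95% intervals, circles are fits with 1 library left out and squares are the other settings, filled where the limma adjusted p was under 0.05. Rhcg ranged from 0.78 to 0.98 and Rhbg from 0.67 to 0.87, Pck1 and Glul stayed above 0 in every setting, and Slc38a3 reached 0.01 in 1 setting.

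In WT kidneys the order by FPKM, a level per transcript length, was Pck1, Glul, Glud1, Rhcg, Slc38a3 and Rhbg. The ranges of Rhcg and Slc38a3 overlapped in WT, and the lowest Slc38a3 value (26.0 FPKM) was next to the highest Rhbg value (25.8 FPKM). In Tsc1-KO kidneys Rhbg stood before Slc38a3, with overlapping ranges, and the others kept their places. Glul and Glud1 were close in WT libraries, where Glul was 1.30, 1.49 and 1.09 times Glud1 in FPKM, and apart in Tsc1-KO libraries, where it was 2.51, 2.08 and 2.26 times Glud1. Pck1 was 4.41, 4.91 and 5.75 times Glud1 in WT and 8.77, 8.42 and 7.97 times in Tsc1-KO libraries. The level of the enzyme that binds ammonia and that of Pck1 were thus higher relative to Glud1 in each Tsc1-KO library than in each WT library, without a test of the ratios. Pck1 over Glul, by contrast, overlapped, at 3.40, 3.29 and 5.26 in WT and 3.50, 4.06 and 3.53 in Tsc1-KO libraries.

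Around Glud1 and Slc38a3, the other genes of glutamine uptake and ammonia production showed no call. Of 25 such genes without the members, among them the aminotransferases, mitochondrial carriers and malate dehydrogenases, 23 were tested; limma called 0, limma-voom called 0, and 7 had an unadjusted p under 0.05. Their median log2 fold change was 0.00, against 0.04 over all genes, and their range was -0.52 to 1.18. The smallest p in the list was that of Cryz, a quinone reductase (log2 fold change -0.28, limma adjusted p = 0.117). Slc6a19, the luminal transporter that recovers filtered glutamine and other neutral amino acids and is named after its values were seen, measured 160.5, 168.7 and 96.3 FPKM in WT and 93.8, 85.0 and 111.5 FPKM in Tsc1-KO libraries, and WT replicate 3 lay among the Tsc1-KO libraries. Without that library 2 genes of the list passed as higher and 2 as lower.

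Beside Pck1, the rest of gluconeogenesis showed no call either. Of 11 tested genes limma called 0 and limma-voom called 0, 3 had an unadjusted p under 0.05, and the median log2 fold change was 0.01. Slc2a2, the glucose transporter of the basolateral proximal membrane, had the smallest p (log2 fold change -0.25, limma adjusted p = 0.164). G6pc, the enzyme of the last step and also named after its values were seen, measured 263.5, 372.2 and 146.7 FPKM in WT and 197.5, 155.4 and 315.7 FPKM in Tsc1-KO libraries, a wide spread with no order by group. Without WT replicate 3, 1 gene of this list passed as higher and 1 as lower.

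Other routes of ammonium, the sodium-proton exchangers, the Na-K-2Cl transporters, potassium channels and the sodium pump, gave 0 calls by limma and 0 by limma-voom among 13 tested genes. Of the 13, 2 had an unadjusted p under 0.05, and the median log2 fold change was 0.02. Without WT replicate 3, 2 of these passed as higher and 1 as lower. Slc9a4, a basolateral sodium-proton exchanger, had the smallest p and a low level, at 0.702, 0.664 and 0.751 FPKM in WT and 1.27, 2.39 and 2.57 FPKM in Tsc1-KO libraries (log2 fold change 1.38, limma adjusted p = 0.0545). All 3 Tsc1-KO libraries were above all WT libraries for this gene, and it missed the threshold. Rhag and Rhd, the Rhesus family members of red cells, were not among the listed genes. Of 19 tested enzymes elsewhere in metabolism that release or fix ammonia, limma called 0 and limma-voom 0, 6 had an unadjusted p under 0.05, and the median log2 fold change was 0.03; without WT replicate 3, 0 passed as higher and 1 as lower. Ampd3, which deaminates AMP, had the smallest p of these (log2 fold change 0.43, limma adjusted p = 0.085).

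The proton and bicarbonate machinery that works beside Rhcg and Rhbg in A-ICs was where calls lay. Of its 13 tested genes 5 rose and 0 fell, by limma and by limma-voom, with a median log2 fold change of 0.18; 8 of the 13 had an unadjusted p under 0.05. Without WT replicate 3, 5 passed as higher and 1 as lower. The 5 of the fit over all libraries were Atp6v0d2 (log2 fold change 1.505, limma adjusted p = 0.00696), Atp6v1g3 (1.20, 0.0107), Atp6v1c2 (0.68, 0.0325) and Atp6v1b1 (0.37, 0.0454), all subunits of the vacuolar proton pump, and Slc4a1 (1.25, 0.00875), the chloride-bicarbonate exchanger AE1. The study named Atp6v0d2, Atp6v1g3, Atp6v1c2 and Slc4a1 as raised too, so this count is not independent evidence. Rhcg at 0.89 and Rhbg at 0.75 lay within the range of these 5, which were picked because they rose. All 13 ran from -1.24 to 1.505. The other 8 did not pass, and among them Slc26a7, named after its values were seen, had the lowest log2 fold change (-1.24, limma adjusted p = 0.0617) at a level under 1 FPKM in every library. Of 14 tested genes for acid sensing and for factors known to act on Pck1 or its neighbours, limma called 0 and limma-voom 0, and 8 had an unadjusted p under 0.05. Their median log2 fold change was 0.09, and without WT replicate 3, 1 passed as higher and 2 as lower.

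**Figure D3:**
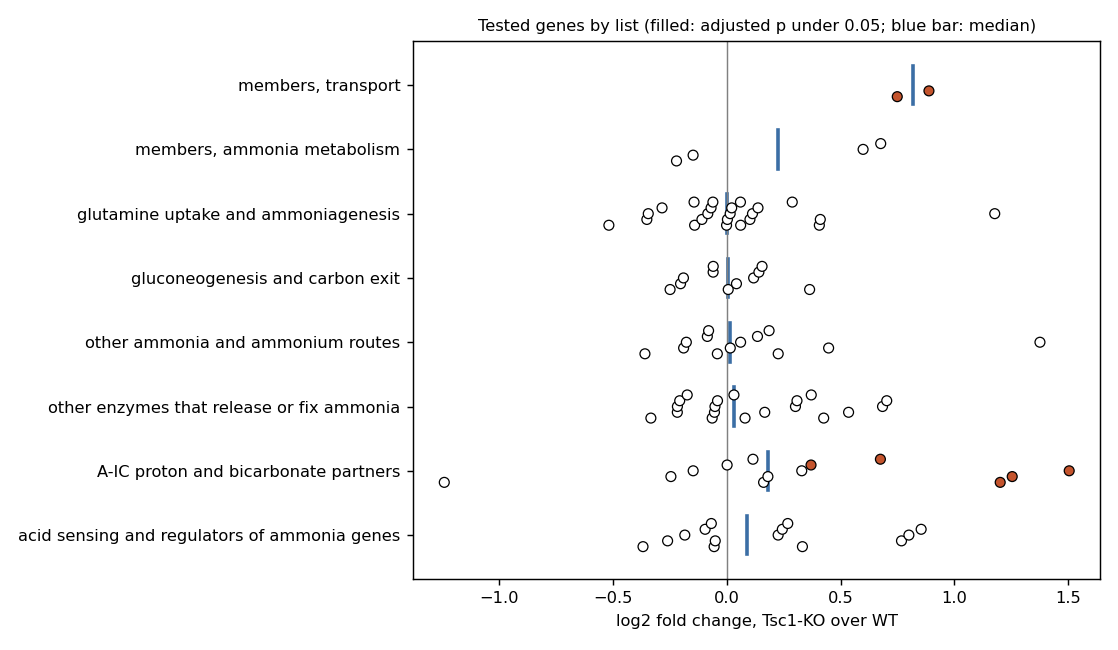
log2 fold change of Tsc1-KO over WT (horizontal axis) for every tested gene of the 6 genes and of 6 lists of related genes, 1 point per gene, filled where the limma adjusted p was under 0.05, with the list median as a blue bar; points are spread vertically only to be seen. Filled points lie only among the 2 transporters and the A-IC partners, whose medians were 0.82 and 0.18.

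Markers of A-ICs moved with Rhcg and Rhbg. All 9 of 9 A-IC markers rose, also without WT replicate 3 (median log2 fold change 1.25), led by Atp6v0d2, by Dmrt2 (1.89), Slc4a1, Adgrf5 (1.45) and Atp6v1g3. The study named Foxi1, Atp6v0d2, Atp6v1g3, Slc4a1, Aqp6 and Kit as raised, from data that include these libraries. The count of 9 is thus not independent evidence. Atp6v0d2, Atp6v1g3, Atp6v1b1 and Slc4a1 were also counted above as partners of Rhcg and Rhbg. The summed level of the 9 was 149 to 172 FPKM in WT and 301.4 to 388 FPKM in Tsc1-KO libraries, and none was at 0. Tsc1-KO replicate 4, the lowest of its group for Rhcg and Rhbg, was the lowest for the sum. That was not particular to A-ICs. The same library was the lowest of its group for summed markers of B-type intercalated cells (52.7 FPKM) and principal cells (529 FPKM). It was also the lowest for those of the thick ascending limb and distal convoluted tubule (2252 FPKM), and the highest for the proximal tubule sums. Relative to the WT mean, the sum of the 9 A-IC markers was 1.86, 2.39 and 2.25 in the Tsc1-KO libraries, where Rhcg was 1.62, 1.96 and 1.96 and Rhbg 1.53, 1.83 and 1.67. Summed markers of B-type intercalated cells were 57.6 to 63.2 FPKM in WT and 52.7 to 57.8 FPKM in Tsc1-KO libraries, with 0 of 3 called by limma or limma-voom and 1 at an unadjusted p under 0.05 (Slc26a4, the exchanger pendrin, log2 fold change -0.20, limma adjusted p = 0.132). Of 8 principal cell markers 3 rose, the sodium channel subunits Scnn1b (0.66) and Scnn1g (0.57) and the transcription factor Gata3 (0.76). A positive log2 fold change was found for 6 of the 8. Fxyd4, named after its values were seen, was lower in every Tsc1-KO library than in every WT library. It measured 57.2, 59.8 and 64.3 FPKM in WT and 49.4, 43.4 and 49.4 FPKM in Tsc1-KO libraries (-0.35, limma adjusted p = 0.0732). The summed level of the 8 overlapped at 444 to 567 FPKM in WT and 529 to 563 FPKM in Tsc1-KO libraries. Without WT replicate 3, 5 of the 8 passed as higher, and 0 of the 3 B-type markers passed. The part of cell makeup in the rise of Rhcg and Rhbg was not tested.

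Markers of the proximal tubule, the main site of Pck1, Slc38a3 and ammonia production, did not move upward with Pck1 and Glul. The sum of 9 markers of segments S1 and S2 was 3233 to 3289 FPKM in WT and 2692 to 3062 FPKM in Tsc1-KO libraries, without overlap. Slc34a1, named after its values were seen, made up most of that sum and overlapped between the groups. It measured 1849.7, 1847.4 and 2078.5 FPKM in WT and 1866.8, 1817.3 and 1514.7 FPKM in Tsc1-KO libraries. Every Tsc1-KO library lay below every WT library for 1 of the 9 markers, and 2 had a positive log2 fold change. Over all libraries 0 of the 9 were called by limma or limma-voom. Without WT replicate 3, where limma called 402 of 13257 tested genes as lower, it called 3 of the 9 as lower. Over all libraries 1 had an unadjusted p under 0.05, the sodium-bicarbonate cotransporter Slc4a4 (log2 fold change -0.36, limma adjusted p = 0.137). For segment S3 the sums were 2349 to 2733 FPKM in WT and 2131 to 2370 FPKM in Tsc1-KO libraries, with overlap. Limma and limma-voom called 0 of 5, and 2 had an unadjusted p under 0.05. Slc27a2, which made up most of the S3 sum, had the smallest p (-0.34, limma adjusted p = 0.0833). Of the 5 S3 markers, 3 had a positive log2 fold change, and their median was 0.02. Of 5 markers of the thick ascending limb and distal convoluted tubule both tools called 0, with 2 at an unadjusted p under 0.05 and Slc12a3 first (0.20, limma adjusted p = 0.177). Without WT replicate 3, 1 of these 5 passed as higher and 0 of the 5 S3 markers passed.

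Pck1 and Glul are also transcribed in fat cells, and fat RNA varied between the libraries. The summed level of 6 listed fat markers was 54.1, 71.0 and 125.0 FPKM in WT and 198.8, 123.2 and 100.4 FPKM in Tsc1-KO libraries, none at 0, and Fabp4, which endothelium also expresses, made up most of it (log2 fold change 0.76, limma adjusted p = 0.188). Limma and limma-voom called 0 of 6, with 1 at an unadjusted p under 0.05, and without WT replicate 3 limma called 2 of the 6 as higher. Adipoq, the fat cell hormone adiponectin and named after its values were seen, measured 0.0726, 1.27 and 3.72 FPKM in WT and 2.998, 2.65 and 0.263 FPKM in Tsc1-KO libraries, with overlapping groups. Among WT libraries replicate 1 was the lowest and replicate 3 the highest for Adipoq, for the fat sum and for Pck1. Among Tsc1-KO libraries replicate 6 was the lowest for Adipoq and the fat sum and the highest for Pck1 and Glul. The part of fat RNA in the levels of Pck1 and Glul was not tested.

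Genes that respond to glucocorticoid moved with the groups as well. Pck1 and Glul are classical glucocorticoid-responsive genes. Tsc22d3, which encodes the glucocorticoid-induced leucine zipper, measured 16.8, 20.1 and 19.7 FPKM in WT and 47.2, 40.5 and 49.5 FPKM in Tsc1-KO libraries (log2 fold change 1.27, limma adjusted p = 0.00696). Per1, a clock gene that also responds to glucocorticoid, measured 5.91, 6.16 and 8.21 FPKM in WT and 16.6, 14.3 and 17.4 FPKM in Tsc1-KO libraries (1.25, limma adjusted p = 0.014). The groups were apart for both genes. Among Tsc1-KO libraries replicate 5 was the lowest for Tsc22d3, Per1 and Glul. It was also the lowest for Pck1, but only just (1454.4 FPKM against 1462.9 FPKM in replicate 4). Among WT libraries replicate 1 was the lowest for Tsc22d3, Per1 and Pck1. Glul had another order there, and was lowest in WT replicate 3 (211.7 FPKM), where Per1 was highest (8.21 FPKM). Of 9 genes of the fasting and glucocorticoid list 2 rose, 6 had an unadjusted p under 0.05 and the median log2 fold change was 1.25; without WT replicate 3, 7 rose. Summed, the list was at 252 to 330 FPKM in WT and 339 to 447 FPKM in Tsc1-KO libraries. Hour of collection and feeding are not given by the labels, and their part in the levels of Pck1 and Glul was not tested.

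**Figure D4:**
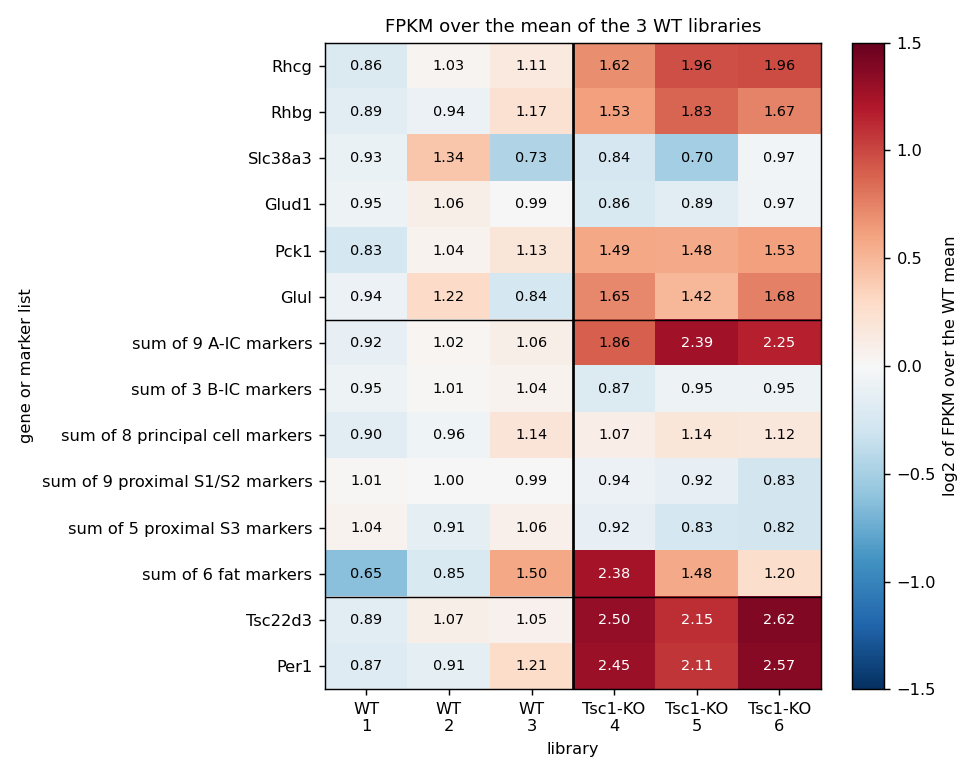
FPKM of the 6 genes, of 6 summed marker lists and of Tsc22d3 and Per1 in each library (columns, WT replicates 1 to 3 and Tsc1-KO replicates 4 to 6), divided by the mean of the 3 WT libraries, as printed in each cell; color is the log2 of that value. Rhcg and Rhbg run beside the A-IC markers, at 1.53 to 1.96 in Tsc1-KO libraries. The sum of S1 and S2 markers, most of it Slc34a1, is at 0.83 to 0.94 where Pck1 is at 1.48 to 1.53.

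Of the remaining lists, fibroblast and matrix genes had 3 calls of 5, the collagens Col3a1 (log2 fold change 1.64), Col1a1 (1.30) and Col1a2 (0.997), all higher in Tsc1-KO libraries, and 3 without WT replicate 3. The erythroid gene Alas2 rose (0.89, limma adjusted p = 0.0438), which limma called without WT replicate 3 as well and limma-voom did not call. Limma and limma-voom called 0 of 4 leukocyte and 0 of 4 endothelial genes, none with an unadjusted p under 0.05 and none called without WT replicate 3, and the smallest p were those of Adgre1 (0.61, limma adjusted p = 0.319) and Emcn (0.26, limma adjusted p = 0.522). Whether these had a part in the levels of the 6 ammonia genes was not tested.

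Across the 6 libraries the log2 values of the 6 genes fell into a pair that ran with the transporters and a pair that did not. Pck1 correlated at 0.967 with Rhcg and at 0.956 with Rhbg, and Glul at 0.815 and 0.718. Slc38a3 was at -0.38 with Rhcg and at 0.66 with Glud1, and at 0.11 with Glul, the enzyme whose product it carries. These are descriptions over 6 points of 2 genotypes, for which any gene that differs between the groups scores high.

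Among 8471 tested genes of mean 5 FPKM or more, those nearest to Rhcg by Pearson r over the 6 libraries were Emb (0.9974), Isyna1 (0.9973) and Dbnl (0.9961). Emb, the chaperone embigin of monocarboxylate transporters, went from a mean of 15.6 to 25.7 FPKM, and Isyna1, the enzyme that makes inositol phosphate from glucose phosphate, from 33.2 to 51.5 FPKM. Nearest to Rhbg were Tmem50b (0.9971), which went from 21.0 to 36.5 FPKM, Eif2b1 (0.996), a translation initiation factor subunit, and Sart3 (0.9959). Nearest to Pck1 were Emc10 (0.9975), a subunit of the endoplasmic reticulum membrane complex, Tubb2a (0.9971), a beta-tubulin that went from 12.4 to 25.3 FPKM, and Bicd2 (0.997), a dynein adaptor. Glul was matched most closely by Ramp2 (0.9941), a co-receptor of the adrenomedullin receptor that went from 9.90 to 15.3 FPKM, Bag6 (0.9916) and Arap3 (0.9915). A high r does not mean a rise of like size. Dbnl went from a mean of 21.3 to 23.2 FPKM, Eif2b1 from 15.5 to 17.1 and Sart3 from 8.64 to 10.03. Emc10 went from 59.8 to 66.2 FPKM, Bag6 from 37.9 to 41.2, Bicd2 from 4.525 to 6.14 and Arap3 from 4.47 to 6.16. Slc38a3 lay nearest to Wdr41 (0.9955), Ctdspl (0.9808) and Rflnb (0.9765), and Glud1 nearest to the homeobox gene Irx3 (0.9817), Sde2 (0.9779) and the kinase Stk24 (0.9645).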

How the data were processed

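Kidney RNA of 3 WT and 3 Tsc1-KO mice was extracted with TRI reagent, poly A selected and sequenced on an Illumina instrument. The authors used HISAT2 2.0.4 for alignment and HTSeq 0.9.1 for counting; the genome build is not given in the sources used here. The authors deposited FPKM per library for 15302 genes. Their deposited mean normalised counts, over all libraries and per group, are a signal; FPKM and these means gave back each library's whole reads (of 90069 values no larger than 10000 reads, 100% came out whole to within 0.02). The authors' fold change, p-value and adjusted p-value columns, and 2 deposited lists of genes higher and lower, were not used. FPKM depends on the transcript length used and on each library's total, so an abundant gene that moves shifts all others slightly.

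Libraries were grouped by their labels. Genotypes were compared with limma 3.58.1 (R 4.3.3) on log2(FPKM + 0.1) where the mean FPKM was 0.5 or more, with a variance trend, 2-sided, Benjamini-Hochberg adjusted over 13230 genes, threshold 0.05. The method was tested on simulated data. Alternatives were another pseudocount, 2 other filters, no trend, median-of-ratios scaling, limma-voom on recovered reads, array quality weights and leaving out each library. Named genes were the 6 members, Tsc1, from each list up to 5 genes that passed with the smallest p or else the one with the smallest p, and 3 nearest genes per member; others are said to be named after their values were seen, and some results are not reported here. The members and lists were chosen with earlier results of these data known. Tables were made with Python 3.11.15, pandas 2.3.3 and numpy 2.4.6, and figures with matplotlib 3.10.9. Promoter sequences are those of RefSeq on GRCm38.p6.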

Additional observations from a re-analysis of the deposited data

How the results depend on the processing

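No paired analysis was possible because the replicate numbers of the WT mice (1 to 3) and of the Tsc1-KO mice (4 to 6) share none. Over 13 alternatives Rhcg, Rhbg, Pck1 and Glul kept a positive sign and Glud1 a negative one; Slc38a3 turned to 0.0124 without WT replicate 2. The number of the 6 genes called, 2 by the main limma fit, was 1 without the variance trend, 4 with array quality weights and 0 to 4 with 1 library left out. Rhbg was at 0.75 without the variance trend (limma adjusted p = 0.0575). With array quality weights Pck1 (0.72) and Glul (0.64) passed. With 1 library left out the log2 fold change ranged from 0.78 to 0.98 for Rhcg, 0.67 to 0.87 for Rhbg, 0.47 to 0.70 for Pck1, 0.56 to 0.83 for Glul, -0.43 to 0.0124 for Slc38a3 and -0.20 to -0.10 for Glud1. Genes higher over all genes, 248 of 13230 tested, became 159 of 8471 tested with the filter at 5 FPKM. They became 1128 with array quality weights and 0 to 713 with 1 library left out. Genes lower, 31, became 18 without the variance trend, 522 with array quality weights and 0 to 402 with 1 library left out. Without Tsc1-KO replicate 6 limma called 0 genes in all, with 1767 at an unadjusted p under 0.05, and without Tsc1-KO replicate 5 it called 0 as lower, with 519 lower at an unadjusted p under 0.05. Calls in the lists of related genes, 5, became 27 with array quality weights and 0 to 19 with 1 library left out, and calls in the marker lists, 18, became 32 and 0 to 31. The cause of these moves was not tested. For Glud1 and Slc38a3, which passed in none of the 13 alternatives, the 95% intervals give the range of change left by the spread between libraries.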
